A study of Homo sapiens with 14 samples.

Results

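The Polycomb group genes examined here are 31 genes listed by name as subunits of Polycomb repressive complex 1 (PRC1), Polycomb repressive complex 2 (PRC2) and the deubiquitinase PR-DUB. The list goes by name and complex, not by a measured value, but it was drawn up with earlier results of these data known. A gene was read by 1 probe set listed to it alone, the one with the highest mean over the 14 arrays of the series. Of the 31 genes 27 had such a probe set among the 19775 genes that did, and all 27 passed the filter on dim values (a log2 value of at least 5 on at least 3 arrays), among 10349 genes tested. They are 15 subunits of PRC1, 11 of PRC2 and 1 of PR-DUB. BMI1 shares its probe set with a readthrough transcript, and RNF2, CBX8 and BAP1 had no probe set listed to them alone here, so these 4 were not analysed.

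RNA came from HEK293, a human embryonic kidney cell line carrying a stably transfected plasmid and kept under G418, an antibiotic to which the plasmid gives resistance. The HOXD9 lines carried HA-tagged HOXD9 and the HOXD13 lines V5-tagged HOXD13, with 4 arrays each: a mixed population (mix) and clones a, b and c picked from it. Each was compared with 3 arrays of cells given the empty vector of the same tag (HA vector, V5 vector), which the labels call biological replicates without saying how the cultures were separated. Since the clones were taken out of the mix, the 4 lines do not count as independent, and each p-value reflects only how far these samples scatter, which may be technical. The labels used here do not name the promoter that drives each transgene. In RNA of whole cultures fewer expressing cells and less RNA per cell cannot be told apart.

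PRC2 places methyl groups on lysine 27 of histone H3 through its catalytic subunit EZH1 or EZH2, held by SUZ12, EED and the histone chaperones RBBP4 or RBBP7. PRC1 places ubiquitin on histone H2A through RING1 or RNF2, each paired with 1 of the PCGF proteins. In canonical PRC1 a CBX protein reads the PRC2 mark and a PHC protein compacts chromatin by polymerising, while variant PRC1 carries RYBP or YAF2 in place of CBX. PR-DUB, made of BAP1 and an ASXL protein, removes the H2A mark. HOX clusters are the classic targets of these complexes, which keep them silent in cells outside their domain.

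Promoter sequences of 28 of the 31 genes were at hand (RefSeq, GRCh38.p14), as 44 windows of the 250 bases before a transcription start. The windows of CBX7 (1) and PHC2 (2, at an outer and an inner start) are shown because these were the members called in the HOXD13 lines, and 1 window of PHC1 because it held the only match among members to a motif of HOX13 proteins. Capitals mark GC boxes (GGGCGG or, on the other strand, CCGCCC) in CBX7 and PHC2 and the HOX13 motif (CAATAAA, here on the other strand as TTTATTG) in PHC1. Matches may overlap. All windows run 5′ to 3′ in the direction of the gene.
CBX7, chr22:39152681-39152930, minus strand: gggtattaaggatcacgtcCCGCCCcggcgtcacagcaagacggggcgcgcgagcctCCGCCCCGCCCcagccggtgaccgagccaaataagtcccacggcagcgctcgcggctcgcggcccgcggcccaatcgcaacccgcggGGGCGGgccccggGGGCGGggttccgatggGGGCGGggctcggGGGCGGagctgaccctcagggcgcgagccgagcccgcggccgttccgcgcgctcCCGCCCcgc
PHC2 outer start, chr1:33431096-33431345, minus strand: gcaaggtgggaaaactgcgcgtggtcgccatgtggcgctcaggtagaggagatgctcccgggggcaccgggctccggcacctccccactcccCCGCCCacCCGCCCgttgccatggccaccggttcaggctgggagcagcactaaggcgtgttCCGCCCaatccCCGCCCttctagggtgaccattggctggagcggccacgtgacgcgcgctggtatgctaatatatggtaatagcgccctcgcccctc
PHC2 inner start, chr1:33349900-33350149, minus strand: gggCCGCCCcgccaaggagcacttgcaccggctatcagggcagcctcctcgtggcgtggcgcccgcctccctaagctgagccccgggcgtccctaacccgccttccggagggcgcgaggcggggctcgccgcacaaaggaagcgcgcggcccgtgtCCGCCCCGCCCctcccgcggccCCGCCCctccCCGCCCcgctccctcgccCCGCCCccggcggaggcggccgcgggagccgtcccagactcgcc
PHC1, chr12:8913593-8913842, plus strand: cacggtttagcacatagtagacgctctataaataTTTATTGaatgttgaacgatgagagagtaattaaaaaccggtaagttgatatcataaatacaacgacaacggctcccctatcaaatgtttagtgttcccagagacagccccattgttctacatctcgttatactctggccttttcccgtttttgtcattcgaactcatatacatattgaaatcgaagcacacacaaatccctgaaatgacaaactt
The CBX7 window held 41 CG pairs and 8 GC boxes, the outer PHC2 window 21 CG pairs and 4 GC boxes, and the inner one 36 CG pairs and 6 GC boxes. Over the 44 windows of members the median was 28.5 CG pairs and a GC content of 72.6%, against 11.0 and 58.0% over all 35116 windows of the RefSeq table. Those windows come from 27305 genes, not only the 10349 tested, so the members were not compared with expressed genes alone. A GC box lay in 33 of the 44 windows, in 22 genes, and in 42.6% of all windows. CAATAAA was found on either strand in 1 of 44 windows and in 3.66% of all windows, and the other HOX13 motif searched, TCGTAAA, in 0 of 44 and in 0.444%. A match is only a match of letters, and the absence of one says only that these letters are not in this window.

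Both transgenes were read in the lines that carry them. Of the HOXD9 probe sets 1 was near the floor outside the HOXD9 lines (2.29 to 2.83) and higher by 4.26 (log2) in them than in the HA vectors. The other, which has the higher mean over the 14 arrays, was not called (0.19). The HOXD13 probe sets were higher by 5.50, 5.05 and 0.98 in the HOXD13 lines than in the V5 vectors. On the last of these clone c read 8.87, below the V5 vectors (8.93 to 8.95), and the mix and clones a and b 10.15 to 10.42. The arrays of the 2 tags were normalized separately, with a 75th percentile of 6.27 for HA and 7.02 for V5, so levels are compared only within a tag. Of the kidney and neuronal markers of HEK293 NEFL, INA and WT1 passed the filter, whereas PAX2 lay between 3.21 and 4.89 and PAX8, LHX1 and NEFM lay near the floor (2.31 to 2.83). Of the other cell types' markers with a probe set, 1 of 8 fibroblast (COL1A1), 1 of 4 squamous (SFN), 1 of 5 leukocyte (LCP1) and 0 of 5 endothelial markers passed, and the rest lay between 2.12 and 3.65. The HOX lines spread more than the vectors: the median SD of the 27 Polycomb genes was 0.06 in the HA vectors and 0.04 in the V5 vectors (n = 3), and 0.24 in the HOXD9 and 0.25 in the HOXD13 lines (n = 4). The 3′ minus 5′ difference of the ACTB control probe sets, a measure of RNA integrity and labelling, was 2.19 to 2.37 in the vectors and 1.70 to 2.80 in the HOX lines.

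In the HOXD9 lines no Polycomb gene was called, and in the HOXD13 lines 2 were called lower, CBX7 and PHC2. A gene is called at an adjusted p under 0.05 in limma, with Benjamini-Hochberg adjustment over all 10349 genes. With HOXD9, 0 of 27 members were called, against 0.00966% of all genes (1 gene), and 4 members (14.8%) had an unadjusted p under 0.05, against 23.5% of all genes. With HOXD13, 2 of 27 members (7.41%) were called, against 10.6% of all genes, both among the lower calls, which made up 7.76% of all genes, and none among the higher calls, which made up 2.88%. The members' share is near or under that of all genes. The median log2 difference of the 27 members was 0.08 with HOXD9, equal to that of all genes at this precision (0.08), and -0.09 with HOXD13, where that of all genes was -0.03.

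**Figure D1:**
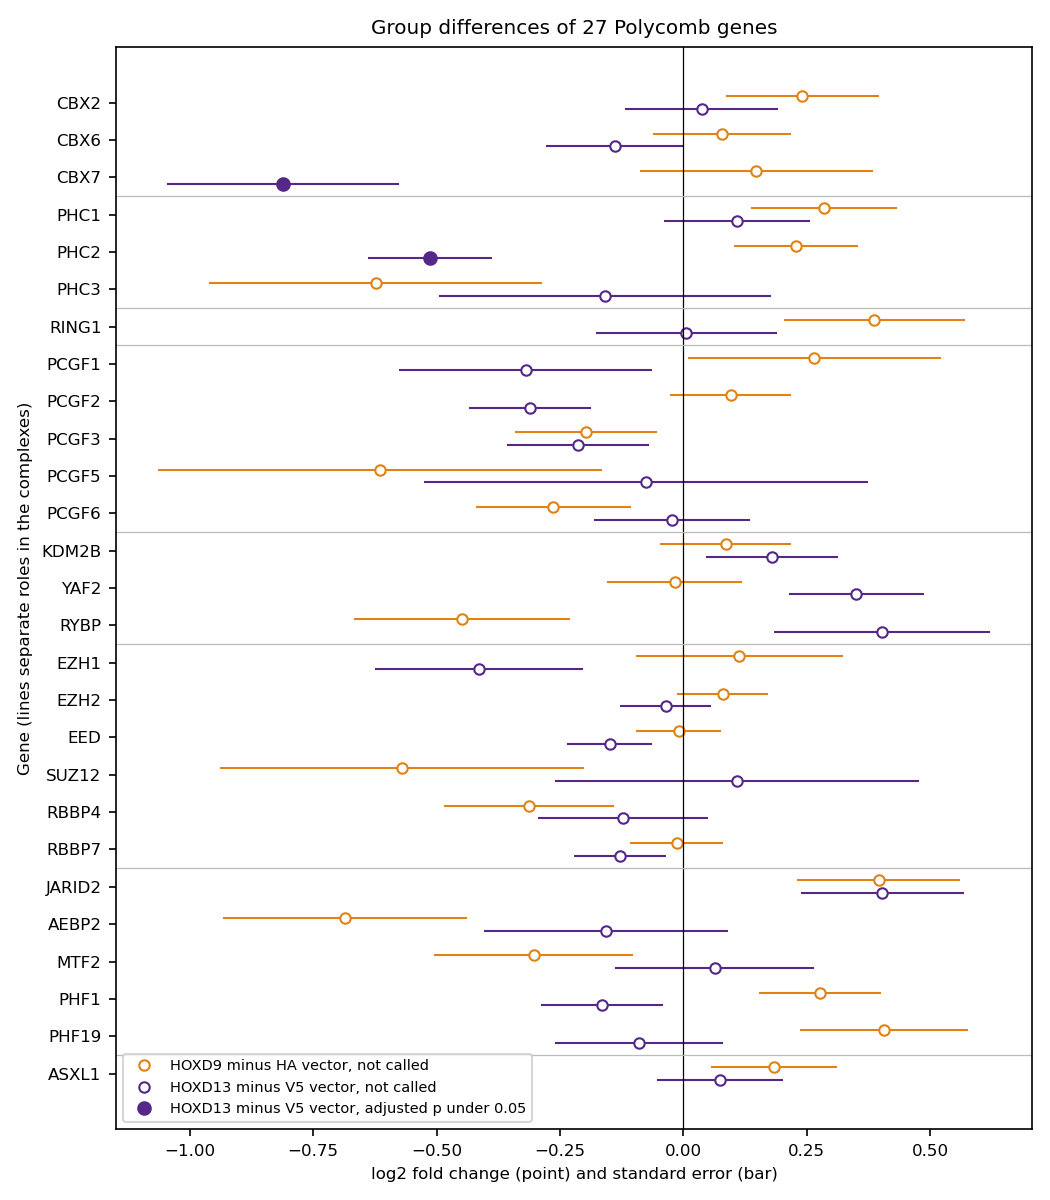
Log2 difference between HOX lines and vectors of the same tag (points; bars are the standard error of the limma fit) for 27 Polycomb genes, HOXD9 (4 lines against 3 vectors) in orange and HOXD13 (4 against 3) in purple. Filled points are called: PHC2 at -0.51 and CBX7 at -0.81, both with HOXD13.

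Among the CBX readers of canonical PRC1, CBX7, which binds the PRC2 mark and is known for silencing the INK4A locus, was lower with HOXD13, and CBX2 and CBX6 were not called. CBX7 read 6.15, 6.27 and 6.11 on the V5 vector arrays, and 5.39 (mix), 4.83 (clone a), 5.13 (clone b) and 6.12 (clone c). The mix and clones a and b lay below all vectors, whereas clone c lay among them, so the groups overlap. These levels are close to the filter value of 5. CBX7 fell by 0.81 (SE 0.24, 1.75-fold, adjusted p = 0.0439, limma). The call was lost in 13 of 23 other settings (adjusted p from 0.000259 to 0.152). They include the V5 set fitted alone (adjusted p = 0.126) and leaving out any HA or V5 vector, the HOXD9 mix, or the HOXD13 mix (0.0954), clone a (0.120) or clone b (0.112); without clone c the fall was 1.06 (0.000259, limma).

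With HOXD9, CBX7 stood at 5.13, 5.17 and 5.03 in the vectors, and at 5.11 (mix), 5.57 (clone a), 5.02 (clone b) and 5.33 (clone c). Clones a and c were above the vectors and clone b just below them, with a log2 difference of 0.15 (SE 0.24, adjusted p = 0.674). CBX2, which compacts chromatin and is needed for gonad development, had differences of 0.24 (HOXD9) and 0.04 (HOXD13), and CBX6 of 0.08 and -0.14. In all 4 HOXD9 lines CBX2 lay above the HA vectors; in HOXD13 clone c it was 0.40 under the vector mean and in the other lines above the vectors. CBX6 in HOXD13 clone c was at 9.57, against 10.10 to 10.13 in the V5 vectors.

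Of the PHC subunits, which polymerise through their SAM domain, PHC2 was lower with HOXD13 in every line. PHC2 read 10.56, 10.53 and 10.63 on the V5 vector arrays, and 10.17 (mix), 9.98 (clone a), 10.07 (clone b) and 10.01 (clone c). All 4 lines lay below all 3 vectors with no overlap. PHC2 fell by 0.51 (SE 0.13, 1.43-fold, adjusted p = 0.0219, limma). The call was lost in 5 of 24 other settings: without V5 vector 1 (adjusted p = 0.0809), 2 (0.0754) or 3 (0.105), and without HOXD13 clone a (0.0686) or b (0.0503).

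In the HOXD9 set PHC2 read 10.17, 10.24 and 10.18 in the vectors, and 10.19 (mix), 10.74 (clone a), 10.24 (clone b) and 10.53 (clone c). The mix and clone b lay within the range of the vectors and clones a and c above it (log2 difference 0.23, SE 0.13, adjusted p = 0.263). PHC2 was the 1 member whose effects differed between the HOX genes: the HOXD13 effect minus the HOXD9 effect was -0.74 (SE 0.18, adjusted p = 0.0213, limma). That call was lost without any 1 of the 6 vectors (adjusted p from 0.0529 to 0.0700).

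PHC3 was low in HOXD9 clones and went apart in the HOXD13 clones. It read 7.79, 7.85 and 7.96 in the HA vectors, and 7.47 (mix), 7.23 (clone a), 7.72 (clone b) and 6.56 (clone c). All 4 lines lay below the vectors, clone c furthest, with a difference of -0.62 (SE 0.34, adjusted p = 0.258). In the V5 vectors PHC3 was 9.20 to 9.34, in the HOXD13 mix 9.18, in clones a and b 8.65 and 8.47, and in clone c 10.11. Clone c thus lay above the vectors and the other lines below them (difference -0.16, adjusted p = 0.814). PHC1 had differences of 0.28 with HOXD9, where all 4 lines were above the vectors, and 0.11 with HOXD13.

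**Figure D2:**
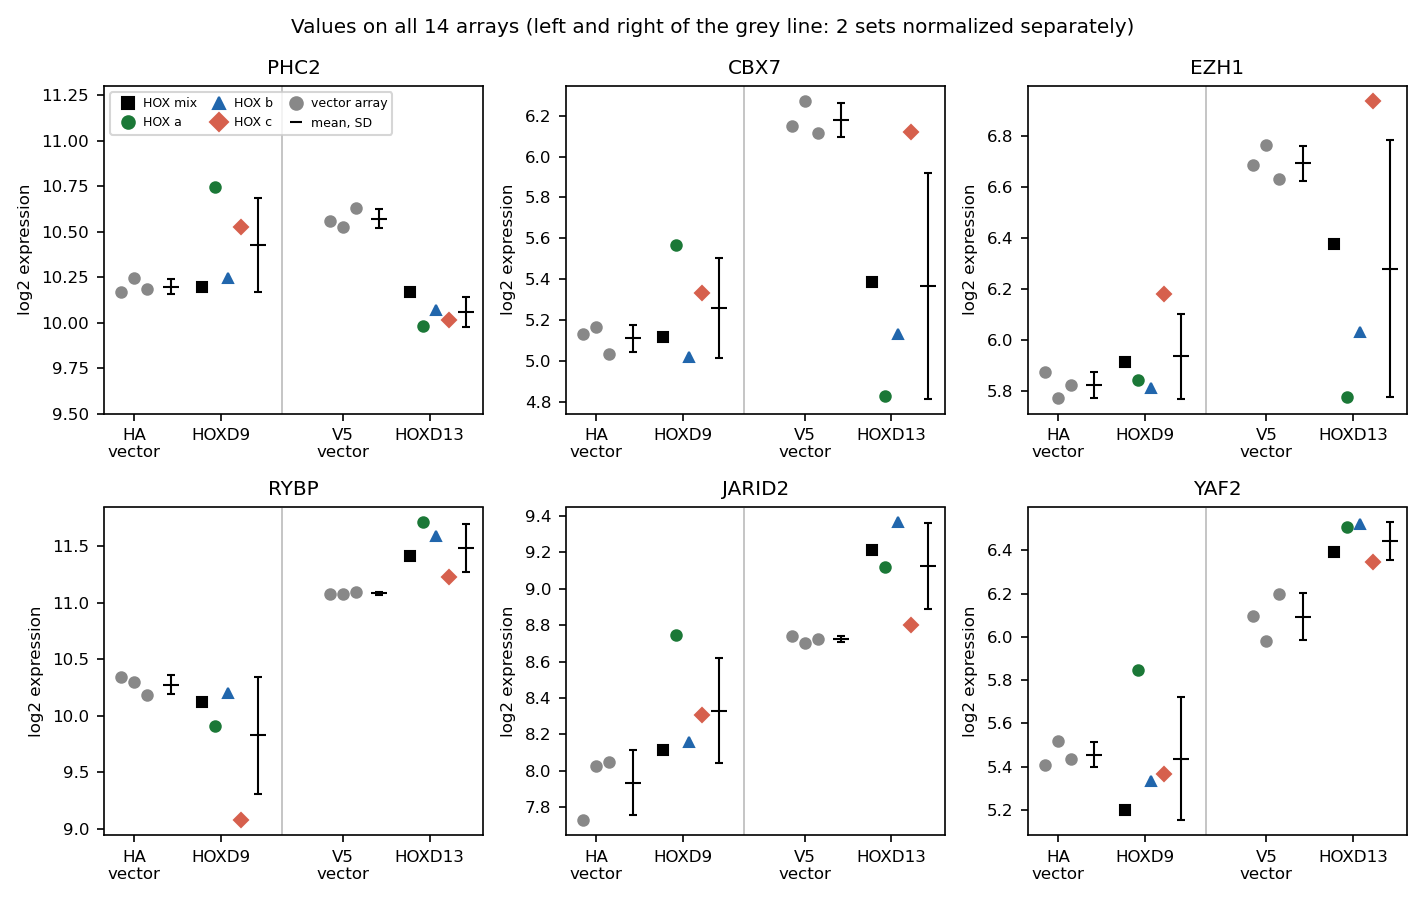
Log2 expression of 6 Polycomb genes on each of the 14 arrays (points; black bars are the group mean and SD); the grey line separates the HA set from the V5 set, which were normalized separately. PHC2 lies below the V5 vectors in all 4 HOXD13 lines, whereas clone c keeps CBX7 at 6.12 and EZH1 at 6.94.

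RING1, the ubiquitin ligase of PRC1 that could be read, had a difference of 0.39 with HOXD9 (SE 0.18, adjusted p = 0.220) and of 0.01 with HOXD13. All 4 HOXD9 lines lay above the HA vectors, clone c by 0.61 over their mean. In HOXD13 clone c RING1 was 9.19, below the V5 vectors (9.72 to 9.76), and in the other lines it was 9.77 to 10.12.

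The PCGF subunits decide which PRC1 subtype forms, PCGF2 in canonical PRC1, PCGF1 in the variant with KDM2B, and PCGF3, PCGF5 and PCGF6 in other variants. None of the 5 read was called with either HOX gene. PCGF5 read 7.56, 7.65 and 7.57 in the HA vectors, and 7.37 (HOXD9 mix), 6.20 (clone a), 7.83 (clone b) and 6.51 (clone c). Clones a and c were lower by over 1 log2 unit and clone b was above the vectors (difference -0.61, SE 0.45, adjusted p = 0.376). Its levels in the V5 set were 8.914 to 8.996 in the vectors, 8.98 (HOXD13 mix), 8.31 (clone a), 8.02 (clone b) and 10.15 (clone c). The direction again depended on the clone.

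PCGF2 lay below the V5 vectors in all 4 HOXD13 lines (difference -0.31, SE 0.12, adjusted p = 0.122, limma). It was called only without HOXD9 clone c, an array that enters the shared spread (adjusted p = 0.0338). In that fit 14.8% of members and 17.4% of all genes were called with HOXD13. PCGF1 had differences of 0.26 (HOXD9) and -0.32 (HOXD13); it was 6.45 in HOXD13 clone a, 5.14 in clone c and 6.04 to 6.17 in the V5 vectors. PCGF3 had -0.20 and -0.21, and PCGF6 had -0.26 and -0.02, in the same order.

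The subunits of variant PRC1 had the highest median of the roles with HOXD13, 0.35 over 3 genes, with none called; a median of 3 genes is a description. RYBP, which joins PRC1 to the H2A mark it made, read 11.07, 11.08 and 11.09 in the V5 vectors, and 11.41 (mix), 11.71 (clone a), 11.59 (clone b) and 11.23 (clone c). On the probe set standing for RYBP all 4 lines were above the vectors, with a difference of 0.40 (SE 0.22, adjusted p = 0.258, limma). With HOXD9 it was 10.35, 10.29 and 10.19 in the vectors, 10.12 (mix), 9.91 (clone a), 10.20 (clone b) and 9.07 (clone c). Clone b overlapped the vectors and clone c lay furthest below (difference -0.45, SE 0.22, adjusted p = 0.227). Without HOXD9 clone c the HOXD13 difference of RYBP was called at the same size (adjusted p = 0.0345, limma), where 17.4% of all genes were called.

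YAF2, the paralogue of RYBP, read 6.10, 5.98 and 6.20 in the V5 vectors, and 6.39 (mix), 6.51 (clone a), 6.52 (clone b) and 6.35 (clone c). It too was above the vectors in all 4 lines (difference 0.35, SE 0.14, adjusted p = 0.118, limma). It was called without HOXD9 clone a (adjusted p = 0.0242), where 12.9% of all genes were called. With HOXD9 its difference was -0.02, with clone a at 5.85 against 5.41 to 5.52 in the vectors. KDM2B, which binds unmethylated CG pairs and brings PRC1 to CpG islands, had differences of 0.09 and 0.18. In the HOXD13 mix and clones a and b it lay above the vectors and in clone c below. Without clone c the difference was 0.31 and called (adjusted p = 0.0249, limma), in a fit that called 35.8% of all genes.

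In the core of PRC2 none of 6 genes was called with either HOX gene. EZH2, the methyltransferase of dividing cells, was 10.76 to 10.79 in the V5 vectors and 10.65 to 10.91 in the HOXD13 lines (difference -0.04, 95% interval -0.23 to 0.16). With HOXD9 its difference was 0.08 (interval -0.12 to 0.28). EED, which binds the mark that PRC2 makes, had -0.01 (interval -0.20 to 0.18) with HOXD9 and -0.15 (interval -0.34 to 0.04) with HOXD13, where all 4 lines lay below the vectors. These intervals include 0, and with 3 and 4 arrays they do not show that the levels were equal.

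EZH1, the methyltransferase of resting cells, read 6.69, 6.77 and 6.63 in the V5 vectors, and 6.38 (mix), 5.77 (clone a), 6.03 (clone b) and 6.94 (clone c). Clone c was above the vectors and the other 3 lines were below them (difference -0.41, SE 0.21, adjusted p = 0.225). Without clone c the difference was -0.63 and called (adjusted p = 0.00397, limma), in a fit that called 18.5% of members and 35.8% of all genes. In the HOXD9 lines EZH1 was 5.81 to 6.18, against 5.77 to 5.87 in the HA vectors.

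SUZ12, the scaffold of PRC2, read 10.22, 10.21 and 10.15 in the HA vectors, and 10.00 (HOXD9 mix), 9.60 (clone a), 10.38 (clone b) and 8.52 (clone c). Clone c was furthest below the vectors and clone b was above them (difference -0.57, SE 0.37, adjusted p = 0.324). In the V5 vectors SUZ12 was 11.39 to 11.46, while the HOXD13 mix read 11.59 and clones a, b and c 11.29, 11.00 and 12.32. RBBP4 had differences of -0.31 (HOXD9) and -0.12 (HOXD13) and RBBP7 of -0.01 and -0.13. On the probe set standing for RBBP4 HOXD9 clone a read 12.01, against 12.73 to 12.88 in the other lines, and all 4 HOXD13 lines lay below the vectors. The other 5 probe sets of RBBP4 did not all share this: on 1 clone a was the highest HOXD9 line (11.80, against 11.36 to 11.53), and 4 had positive differences with HOXD13 (0.17 to 0.30).

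The accessory subunits steer PRC2 to its sites: PHF1, MTF2 and PHF19 in PRC2.1, and JARID2 and AEBP2 in PRC2.2. The 4 members with an unadjusted p under 0.05 in the HOXD9 lines were all accessory subunits (AEBP2, PHF19, JARID2 and PHF1), a smaller share of the 27 members (14.8%) than of all genes (23.5%), and none was called. AEBP2 read 9.29, 9.23 and 9.29 in the HA vectors, and 9.02 (mix), 8.07 (clone a), 9.10 (clone b) and 8.14 (clone c). All 4 lines lay below the vectors, clones a and c furthest (difference -0.69, SE 0.25, adjusted p = 0.158, limma). Without clone b the difference was -0.86 and called (adjusted p = 0.0477), in a fit that called 3.7% of members and 8.5% of all genes. With HOXD13 its difference was -0.16, with clone c at 10.35, above the vectors, and the other lines at 9.65 to 9.84, below them.

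JARID2, which helps PRC2 bind the H2A mark, had almost the same difference with both HOX genes on the probe set standing for it. It read 8.74, 8.71 and 8.72 in the V5 vectors, and 9.21 (HOXD13 mix), 9.12 (clone a), 9.37 (clone b) and 8.80 (clone c). In the HA vectors it read 7.73, 8.03 and 8.05, and in the HOXD9 lines 8.11 (mix), 8.75 (clone a), 8.16 (clone b) and 8.30 (clone c). In both sets all lines lay above all vectors, with differences of 0.40 (SE 0.17, adjusted p = 0.135) with HOXD13 and 0.40 (SE 0.17, adjusted p = 0.185) with HOXD9. The comparisons share no vector array, and the HOXD13 effect minus the HOXD9 effect was 0.01 (95% interval -0.50 to 0.51). Without HOXD13 clone c the HOXD13 difference was 0.51 and called (adjusted p = 0.0207, limma), where 35.8% of all genes were called. The other probe set of JARID2 above the filter had differences of 0.24 with HOXD9 and 0.39 with HOXD13.

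PHF19, a reader of methylated lysine 36 of histone H3, read 8.68, 8.59 and 8.65 in the HA vectors, and 8.998 (HOXD9 mix), 9.19 (clone a), 8.69 (clone b) and 9.31 (clone c). All lines were above the vectors, clone b only just (difference 0.41, SE 0.17, adjusted p = 0.185). With HOXD13 its difference was -0.09, with clone c at 8.67 and the vectors at 9.18 to 9.28. PHF1 had 0.28 with HOXD9, in all 4 lines above the vectors, and -0.17 with HOXD13. MTF2 had -0.30 and 0.06, and in HOXD9 clone c it was 8.88, against 9.82 to 9.90 in the vectors. ASXL1, the partner of BAP1 in PR-DUB, had 0.18 and 0.07.

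The members were also counted by whether the 4 lines and the 3 vectors overlap on the probe set standing for each gene. With HOXD9, 6 members lay above the vectors in all 4 lines (PHF19, JARID2, RING1, PHC1, PHF1 and CBX2; 22.2%, against 22.4% of all genes) and 2 below (AEBP2 and PHC3; 7.41% against 14.1%). With HOXD13, 3 members lay above (RYBP, JARID2 and YAF2; 11.1% against 8.59%) and 4 below (RBBP4, EED, PCGF2 and PHC2; 14.8% against 20.3%).

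**Figure D3:**
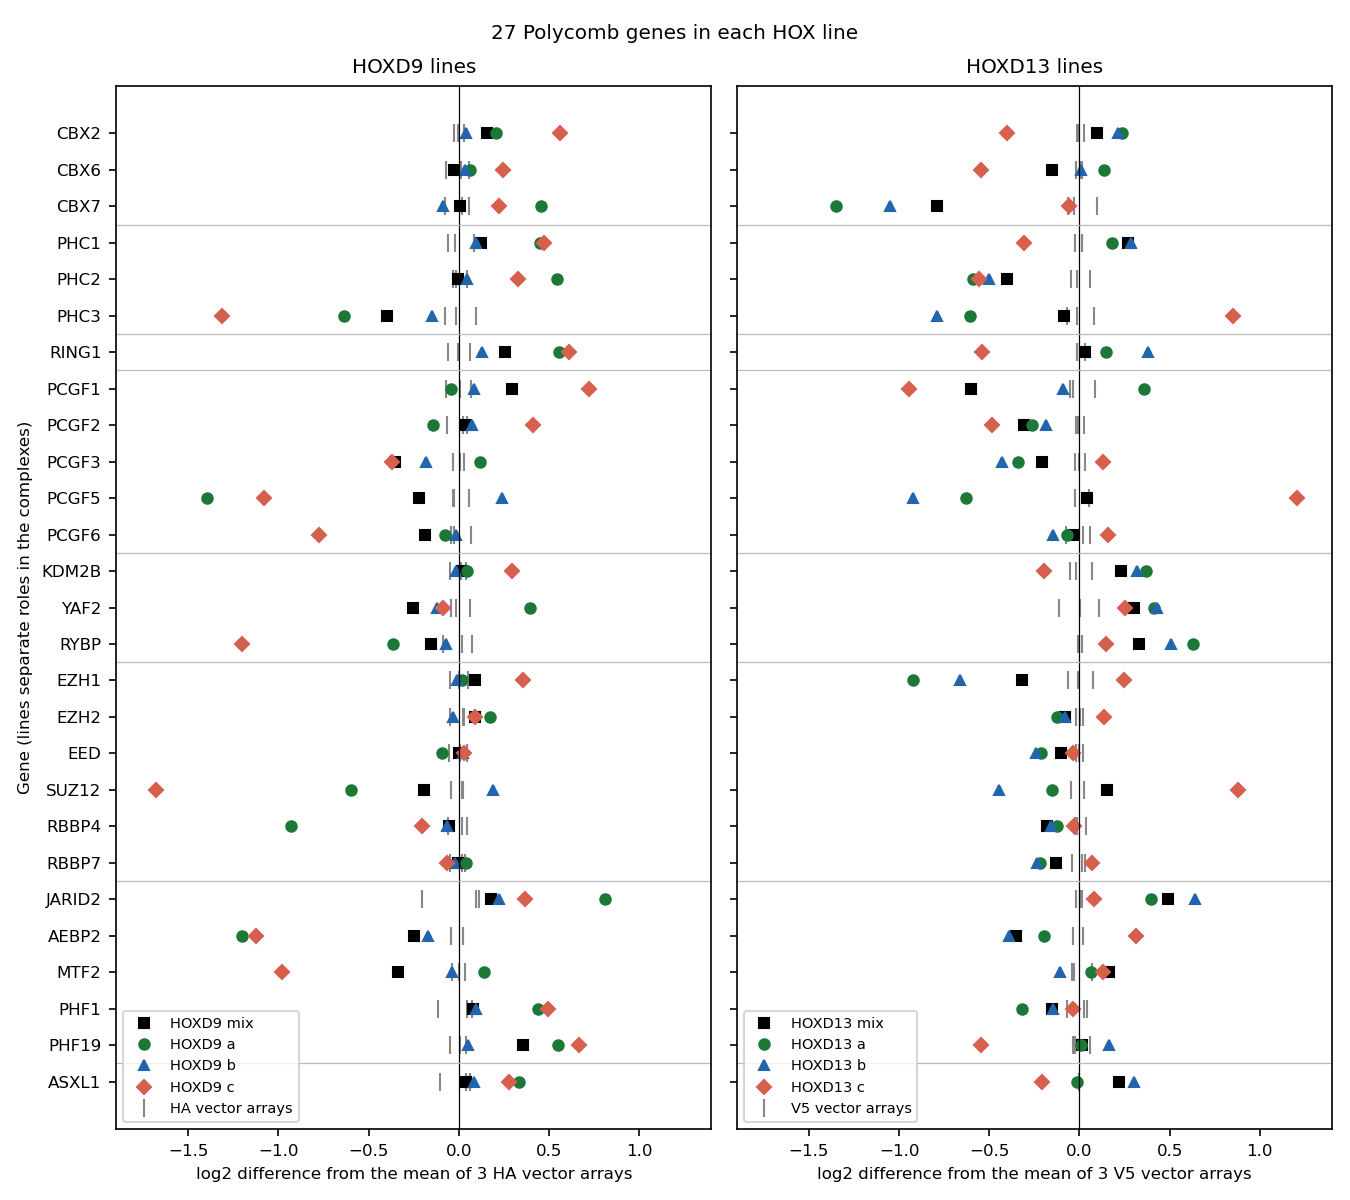
Log2 difference of each HOX line (coloured symbols) and each vector array (grey ticks) from the mean of the 3 vectors of its tag, for 27 Polycomb genes ordered by role. Clones a and c of HOXD9 lie far left in AEBP2 and PCGF5, and clone c of HOXD13 lies right of the vectors in PHC3, PCGF5 and SUZ12, where clones a and b lie left.

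Other probe sets of a gene did not always move with the one that stood for it. Of the 27 genes 16 had several probe sets that passed the filter, and all of a gene's probe sets had the same sign in 11 genes with HOXD13 and in 10 with HOXD9. Signs were mixed with HOXD13 in CBX6, MTF2, PHC1, PHF19 and RBBP4, and with HOXD9 in CBX2, PCGF3, PCGF5, PHC1, RBBP4 and RYBP. Tested singly, 5 of 58 probe sets of members were called with HOXD13 (8.62%, against 8.53% of 17388) and 0 with HOXD9 (against 0.0403%). Besides the probe set of PHC2 these were second probe sets of PHC1 (-0.48, adjusted p = 0.0399), PHC3 (-0.86, adjusted p = 0.0219) and PHF19 (-0.67, adjusted p = 0.0204), all lower, and of ASXL1 (0.68, adjusted p = 0.00929), which was higher. CBX7, read by 1 probe set, missed the threshold among all probe sets (adjusted p = 0.0509).

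With the second probe set of PHC1 the V5 vectors read 8.12, 8.03 and 8.14, the HOXD13 mix 7.60, and clones a, b and c 7.44, 7.47 and 7.95. All 4 lines lay below the vectors on it, while on the probe set standing for PHC1 the mix and clones a and b lay above them. For PHC3 the second probe set read 5.71, 5.50 and 5.79 in the vectors, and 4.98, 4.18, 4.77 and 5.30 in the mix and clones a, b and c, all below the vectors. The second probe set of CBX2 was dim in the V5 vectors (4.77 to 4.88) and read 6.29 (mix), 6.88 (clone a), 7.44 (clone b) and 4.61 (clone c). It was thus over 1 unit higher in 3 lines and not in clone c (difference 1.50, SE 0.46, adjusted p = 0.0620). All 4 probe sets of RYBP had positive differences with HOXD13 (0.40 to 0.49), and all 5 of MTF2 negative ones with HOXD9. Which transcripts each probe set detects was not analysed here.

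**Figure D4:**
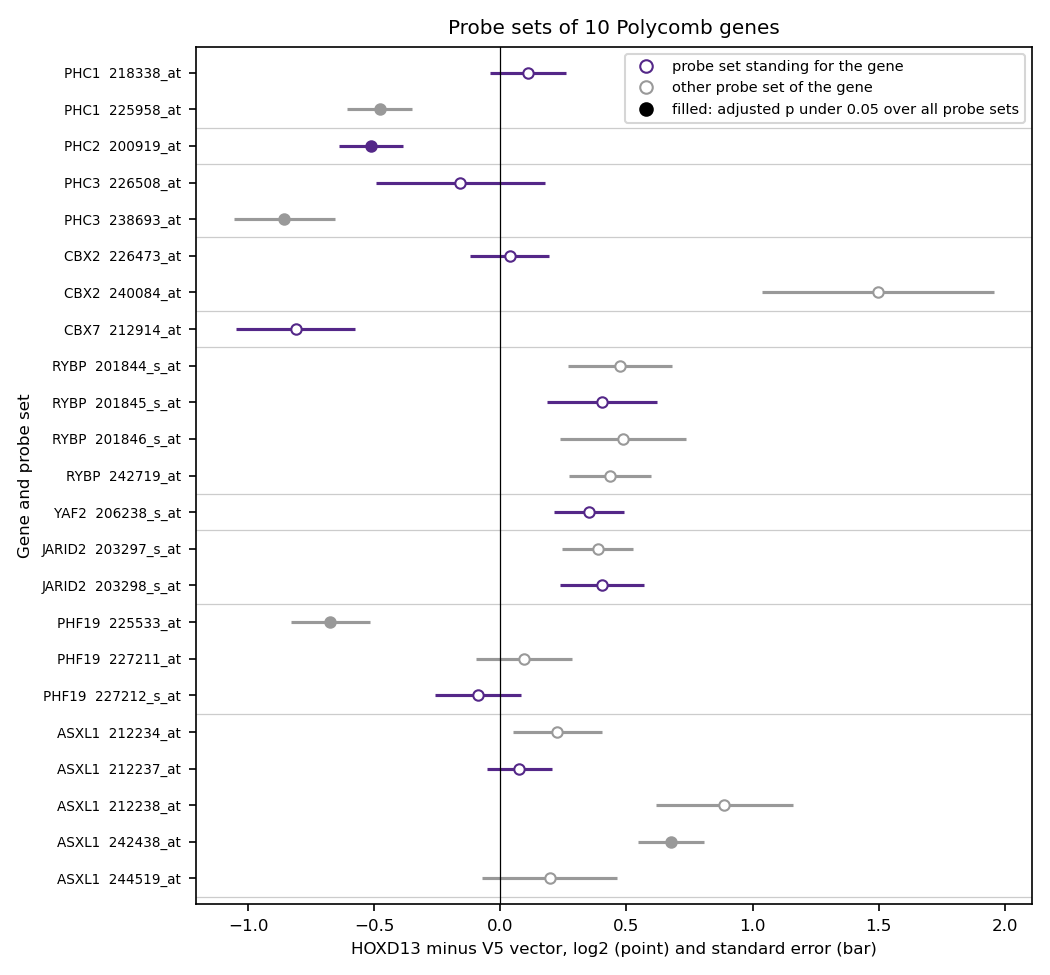
Log2 difference of HOXD13 lines from V5 vectors (points) with its standard error (bars) for every probe set above the filter of 10 Polycomb genes; purple marks the probe set standing for the gene and filled points are called over all probe sets. The probe sets of PHC1 lie on both sides of 0 (0.11 and -0.48), those of RYBP on 1 side (0.40 to 0.49).

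The lines of 1 HOX gene were unlike one another in these genes. Members over 1 log2 unit from their vector mean numbered 0 in the HOXD9 mix and clone b, 2 in clone a and 5 in clone c, beside 5, 23, 619 and 1439 of all genes. In HOXD13 there were 0 in the mix and 1 in each clone, beside 344, 752, 1039 and 333 of all genes in the mix and clones a, b and c. The 5 in HOXD9 clone c were SUZ12, PHC3, RYBP, AEBP2 and PCGF5, all lower.

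Clone c of HOXD9 and clone c of HOXD13 went opposite ways in 23 of 27 members, against 82.9% of all genes, and share no vector array. The Pearson correlation of their differences was -0.81 over the 27 members and -0.68 over all genes. This describes 2 lines, since genes of 1 array share their RNA and are not independent. SUZ12 was lower by 1.68 in the former and higher by 0.88 in the latter. The values are -1.31 and 0.85 for PHC3 and -1.08 and 1.21 for PCGF5. On the second probe set of PHC3 both clones c lay below their vectors. HOXD9 clone c read 4.68 there (HA vectors 5.15 to 5.17) and HOXD13 clone c 5.30 (V5 vectors 5.50 to 5.79). On 1 other probe set of PCGF5 the directions were reversed. There HOXD9 clone c read 5.91 (HA vectors 5.08 to 5.37) and HOXD13 clone c 4.08 (V5 vectors 5.11 to 5.36). On the remaining PCGF5 probe set HOXD9 clone c was again below its vectors (5.68) and HOXD13 clone c above its vectors (9.22). Beside these values, the ACTB 3′ minus 5′ difference was 2.10 in HOXD9 clone c and 2.80 in HOXD13 clone c, with 1.70 in HOXD9 clone a and 1.82 in HOXD13 clone b. The Spearman correlation of the shift with genomic length over the 27 members was -0.50 in HOXD9 clone c and 0.53 in HOXD13 clone c, against -0.34 and 0.27 over all genes with a length. The part of RNA quality in the differences between lines was not tested. In the group comparison, with the ACTB difference as a covariate 4 members were called with HOXD13 (CBX7, PHC2, JARID2 and YAF2; 14.8%), against 25.1% of all genes in that fit.

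**Figure D5:**
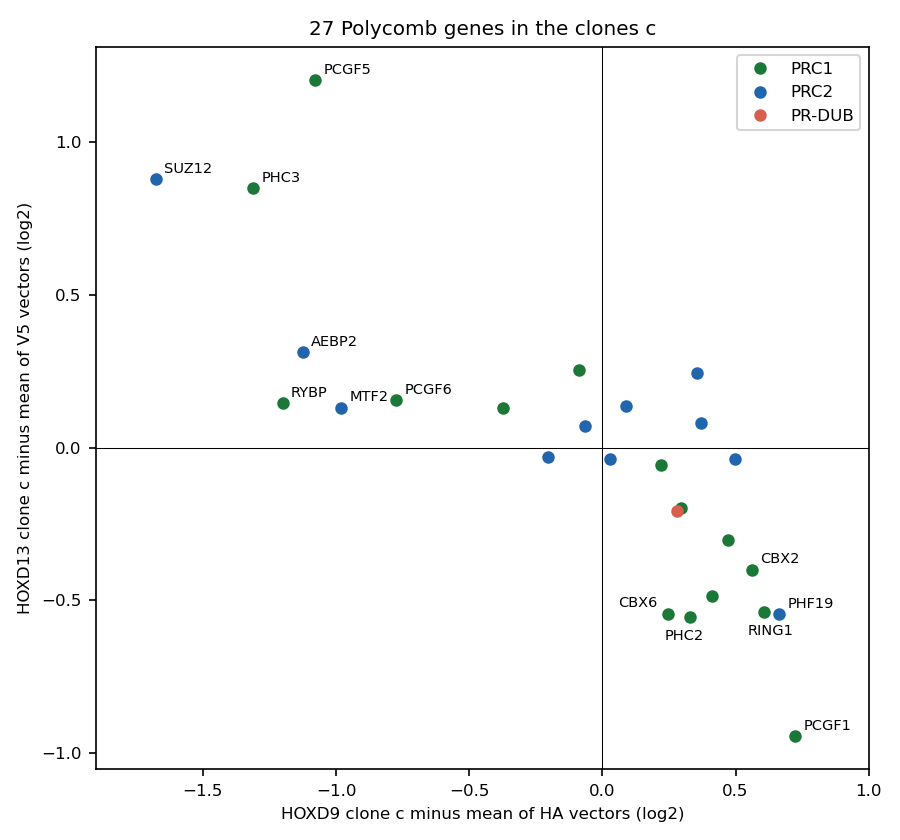
Each point is 1 of 27 Polycomb genes, with its log2 difference from the HA vector mean in HOXD9 clone c on the x axis and from the V5 vector mean in HOXD13 clone c on the y axis. PCGF5, SUZ12 and PHC3 lie low in the first and high in the second, PCGF1 the reverse, and 23 of 27 points have opposite signs.

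The difference between the HOXD13 and the HOXD9 effect was called for 1 of 27 members (PHC2; 3.70%), against 9.63% of all genes, of which 1.52% were higher and 8.12% lower. CBX7 (-0.96, adjusted p = 0.0888) and RYBP (0.85, adjusted p = 0.101) came next by p-value and were not called. CBX7 was called without HOXD13 clone c (-1.21, adjusted p = 0.00204). RYBP was called without HOXD9 clone b (0.98, adjusted p = 0.0467), HOXD9 clone c (0.60, adjusted p = 0.0426) or HOXD13 clone c (0.94, adjusted p = 0.0480). These values come from the probe set standing for RYBP, with a HOXD9 difference of -0.45. The others had HOXD9 differences of -0.15, -0.19 and 0.08, with HOXD9 clone a above the HA vectors on each. Leaving out 1 array also brought calls for YAF2, without HOXD9 clone a (0.51, adjusted p = 0.0330, limma), and EZH1, without HOXD13 clone c (-0.75, adjusted p = 0.0162). Over all genes these fits called 9.11% (without HOXD9 clone a), 16.1% (HOXD9 clone b), 10.6% (HOXD9 clone c) and 22.2% (HOXD13 clone c). Of members they called 7.41% without a HOXD9 clone and 14.8% without HOXD13 clone c.

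Around the 27 genes, other genes of the Polycomb and Trithorax systems were counted against the 10.6% of all genes called with HOXD13. With HOXD9 none of these lists had a call, where 1 of all 10349 genes was called. Of 35 other Polycomb genes tested 1 fell, SCMH1, a PRC1-associated SAM domain protein (by 0.78, SE 0.14, adjusted p = 0.00544), and 0 rose. Of 21 genes for H3K27 demethylases and Trithorax proteins ASH2L, a core subunit of the H3K4 methyltransferases, fell by 0.69 (SE 0.13, adjusted p = 0.00716), and 0 rose. Of 19 SWI/SNF subunits, which oppose Polycomb, 0 were called, with a median of -0.20. All 4 HOXD13 lines lay below the vector mean in SCMH1 (-0.40 to -0.98) and ASH2L (-0.65 to -0.76).

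Of 41 textbook Polycomb target genes tested 3 rose and 2 fell with HOXD13, against the 2.88% and 7.76% over all genes, with a median of 0.18. CDKN2B, a cell cycle inhibitor of the INK4 locus, rose by 1.23 (SE 0.20, adjusted p = 0.00361), in every line by at least 0.87. Expression of the homeobox gene MSX2 rose by 1.02 (adjusted p = 0.0400, limma) and the ligand BMP2 by 0.81 (adjusted p = 0.0119). Clone c rose least in both, by only 0.08 for MSX2 and 0.29 for BMP2. For BMP2 the mix and clones a and b rose by 0.74, 1.12 and 1.08. GATA6, a zinc finger factor of endoderm, fell by 0.54 (adjusted p = 0.0452) and the homeobox gene DLX1 fell by 0.42 (adjusted p = 0.0325). These genes are targets by textbook knowledge, and no binding or histone mark was measured in these cells.

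EZH2 is commonly assigned to the proliferation and E2F target genes. Of 21 such genes tested 2 were called lower with HOXD13 and 0 higher, against 7.76% and 2.88% of all genes. CDC45 fell by 0.74 and E2F2 fell by 0.47. Between the HOX genes the effect was lower with HOXD13 for SCMH1 (-1.08), CSNK2B (-0.68), ASH2L (-0.89), SMARCB1 (-0.99), CDC45 (-1.23) and E2F2 (-0.76), and higher for CDKN2B (1.57) and WNT5A (0.69), all called. Over all genes 8.12% were called lower and 1.52% higher in this comparison. SMARCB1, a core SWI/SNF subunit, was above the HA vector mean in all 4 HOXD9 lines and below the V5 vector mean in all 4 HOXD13 lines.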

How the data were processed

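The authors deposited log2 expression values per probe set of a 3′ array. They were made with GCRMA, per the submitters' processing notes, which corrects background by probe sequence, normalizes arrays to 1 distribution and summarises probes; its version is not given in the sources used here. GCRMA leaves undetected transcripts near a floor of about 2, where folds depend on the background model. Sorted values of the 7 arrays of a tag were equal to within 0.00102 (HA) and 0.00195 (V5), so the tags were normalized separately. An array has no read depth: precision is limited by the number of arrays.

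From the deposited log2 values, 1 mean per group was fitted to the 14 arrays with lmFit and eBayes of limma 3.58.1 (R 4.3.3, package data.table, 1.17.8), with tests two-sided and adjusted by Benjamini-Hochberg. Genes came from the platform annotation, with 41097 probe sets of 1 gene, 1801 of several and 11777 of none listed; 41043 matched RefSeq. Probe sets were also tested singly (17388). The code was tested on simulated data. Members, lists and tests were chosen with earlier results of these data known. All 31 genes are named. Array values are given for members called and for the 6 largest differences in each contrast, and for some others, chosen after their values were seen; from other lists up to 4 called genes a contrast are named. Genes read by second probe sets were named after seeing their values. Alternatives were the filter, probe set rule, scaling, variance model, ACTB covariate, replicate block and leaving out arrays. Figures used Python 3.11.15, pandas 2.3.3 and matplotlib 3.10.9.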

Additional observations from a re-analysis of the deposited data

Results flagged for a closer look

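On the probe set standing for it, RBBP4, the histone chaperone of PRC2, was lowest in HOXD9 clone a (12.01), away from the other 3 HOXD9 lines (12.73 to 12.88). The gap to the nearest line was 0.830 of the group's range, just past the critical value for 4 samples. With 54 such groups of 4 examined, chance marks about 1 in 20, so 1 is not above that rate. Of the other 5 probe sets of RBBP4, 1 also had this clone lowest of the HOXD9 lines. On all the rest clone c was lowest, and on 1 of these clone a was highest (11.80). The ACTB 3′ minus 5′ difference of clone a was 1.70, the lowest of the 14 arrays.

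The effects of the HOX genes differed for PHC2, by a test of the difference: -0.74 (SE 0.18, adjusted p = 0.0213, limma), the HOXD13 effect being -0.51 and the HOXD9 effect 0.23. It was the only one of the 27 genes whose difference of effects was called.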

How the results depend on the processing

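Under every alternative the called differences of PHC2 and CBX7 kept their direction. CBX7 (HOXD13) ranged from -1.07 to -0.63, PHC2 (HOXD13) from -0.55 to -0.48 and the PHC2 difference of effects from -0.82 to -0.62. CBX7 was not tested with the filter of 7, which it does not pass. Called Polycomb genes with HOXD13 (2) became 1 with the tag set alone, with no filter, with the filter of 7 or with arrays centred on the median, and 4 with the ACTB covariate. For the difference of effects (1) they became 3 with group quality weights and 2 with the ACTB covariate. Leaving out 1 array gave 0 to 1 Polycomb calls with HOXD9 (1 without clone b), 0 to 5 with HOXD13 (0 without any V5 vector or HOXD13 clone a or b; 1 without any HA vector, the HOXD9 mix or the HOXD13 mix; 4 without HOXD9 clone c; 5 without HOXD13 clone c) and 0 to 4 for the difference (0 without any vector, 2 without HOXD9 clone a, b or c, 4 without HOXD13 clone c). Over all genes, HOXD9 (1) gave 0 with the tag set alone, 6 with no filter, 2 with the mean of probe sets and 50 with the ACTB covariate. HOXD13 (1101) gave 1772 with group quality weights and 2596 with the ACTB covariate, and the difference (997) gave 2025 with the ACTB covariate. Leaving out 1 array gave 0 to 1100, 303 to 3701 and 384 to 2299 in that order, each highest without HOXD13 clone c (1100, 3701 and 2299), with 880 for HOXD9 without HOXD9 clone b and the lowest HOXD13 count without V5 vector 3. Chosen after seeing the data, leaving out the 3 arrays whose ACTB difference lay farthest from their vectors (HOXD9 clone a, HOXD13 clones b and c) gave 0, 6 and 4 Polycomb calls and 102, 3259 and 2058 over all genes. As shares called with HOXD13, members and all genes stood at 14.8% and 17.4% without HOXD9 clone c. The shares were 18.5% and 35.8% without HOXD13 clone c, and 22.2% and 31.5% without the 3 arrays. For the difference they were 14.8% and 22.2% without HOXD13 clone c, and 14.8% and 19.9% without the 3 arrays. With HOXD9 they were 3.7% and 8.5% without HOXD9 clone b. The causes of these changes were not tested.

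Replicate labels are shared across tags only by name: the correlation of deviations between samples of 1 label was -0.03 to 0.04 for vectors 1 to 3 and the a clones, -0.23 for the mixes, -0.62 for the b clones and -0.58 for the c clones, so they do not pair the samples. With the label as a replicate block the difference of effects gave 0 Polycomb calls (PHC2, adjusted p = 0.122) and 197 over all genes. Alternatives were run for the Polycomb genes and the counts over all genes, not for genes of the other lists.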
